A study of Mus musculus with 2 samples.

Results

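The 8 genes described here carry out antigen presentation on major histocompatibility complex (MHC) class II. They were taken by symbol from the 27998 genes of both matrices, and all 8 were found. H2-Aa, H2-Ab1 and H2-Eb1 encode class II chains. Cd74 encodes the invariant chain, H2-DMa, H2-DMb1 and H2-DMb2 encode chains of the peptide exchange factor H2-DM, and Ciita encodes the class II transactivator. Their transcripts were counted by droplet single-cell RNA sequencing in leukocytes (CD45+) that had entered B16 melanomas. The tumours had been implanted in female C57BL/6 mice 5 weeks of age and were taken on day 14. One library came from Nrp1L/L Foxp3Cre-YFP mice, which carry floxed Nrp1 and a Cre-YFP allele at Foxp3, the gene that marks regulatory T cells. The other came from Foxp3Cre-YFP control mice, which share the Cre-YFP allele. There is 1 library per genotype, so genotype, mouse, tumour and library cannot be told apart, no test is possible, and every interval below is a 95% interval for counting error only.

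Class II molecules are pairs of an alpha and a beta chain that show peptides from endocytosed proteins to CD4+ T cells. The invariant chain escorts new pairs and blocks their groove, lysosomal proteases trim it to a fragment, and H2-DM exchanges that fragment for peptides. Dendritic cells and B cells make class II constantly, macrophages and monocytes make it in amounts that interferon-gamma raises through Ciita, and mouse T cells do not make it. C57BL/6 mice have no working E alpha chain, so the H2-Eb1 product has no partner of its own isotype there, although the gene is transcribed.

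The transactivator acts through proteins bound to an X box and a Y box upstream of class II genes. Promoters of H2-Aa, H2-Eb1, H2-DMa, H2-DMb1 and H2-DMb2 were compared. Those of H2-Ab1, Cd74 and Ciita were not, so nothing is said of their motifs. Stretches of 65 bases from RefSeq promoters (GRCm38.p6, strand of the gene) are shown because the compared members that hold both motifs do so at nearly the same spacing. Capitals mark GATGATG, a stretch of the X box, and ATTGG, the core of the Y box. The first of these was chosen after these promoters were seen, and a match describes letters, not binding.
H2-Aa, chr17:34287852-34287916, minus strand: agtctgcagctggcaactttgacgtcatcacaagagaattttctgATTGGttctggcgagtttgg
H2-Eb1, chr17:34305763-34305827, plus strand: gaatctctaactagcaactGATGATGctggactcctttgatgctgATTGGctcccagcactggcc
H2-DMb1, chr17:34153085-34153149, plus strand: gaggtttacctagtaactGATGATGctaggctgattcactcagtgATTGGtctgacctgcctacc
H2-DMb2, chr17:34145114-34145178, plus strand: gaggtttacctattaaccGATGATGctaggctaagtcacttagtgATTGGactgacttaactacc
The second motif begins 19 bases after the end of the first in H2-Eb1, and 20 bases after it in H2-DMb1 and in H2-DMb2. On either strand of the 250 bases before the RefSeq start, GATGATG occurred in 959 of 32851 promoters (2.92%) and ATTGG in 11120 (33.8%). GATGATG followed 10 to 30 bases on by ATTGG, both on the sense strand, occurred in 9 promoters (0.0274%), of which 3 are those printed here. The H2-Aa stretch holds ATTGG alone. H2-DMa has 2 promoters in the table, and neither holds GATGATG on the sense strand.

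In the genome (GRCm38, GENCODE vM21) 6 members lie within the MHC on chromosome 17. H2-DMa spans chr17:34119541-34139101, H2-DMb2 chr17:34143307-34151555, H2-DMb1 chr17:34153072-34160230, H2-Ab1 chr17:34257689-34269419 and H2-Eb1 chr17:34305867-34316674, all on the plus strand. H2-Aa spans chr17:34282744-34287823 on the minus strand. Cd74 lies at chr18:60803848-60812652 and Ciita at chr16:10480059-10528418, both on the plus strand. The printed H2-DMb1 and H2-DMb2 stretches lie before a RefSeq start but inside the GENCODE spans of those genes. RefSeq and GENCODE thus place these starts differently. H2-DMb1 and H2-DMb2 are near copies, so how reads were divided between them is uncertain, and H2-Eb1, H2-DMa, Cd74 and Ciita overlap other annotated genes.

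The Nrp1L/L library held 1275 kept cells with a median of 5332 unique molecular identifiers (UMIs, tags that count a captured transcript once), and the control library 1302 kept cells with a median of 8056.5. The libraries shared 3 cell barcodes. A Foxp3 UMI was found in 3 T cells of each library, too few to check the deletion of Nrp1. Cells were sorted by summed UMIs of gate genes, named after those gates, and cells of mixed gates (T and myeloid, 15 and 15; cDC and macrophage, 1 and 5) were set aside. Conventional dendritic cells (cDC, at least 2 UMIs of Cd209a, Flt3, Xcr1 and Ccr7) numbered 41 Nrp1L/L and 106 control cells. Macrophages (at least 10 UMIs of C1qa, C1qb and C1qc) without 3 UMIs of the proliferation genes Mki67, Top2a, Birc5 and Ube2c numbered 81 and 209, and those with them, called cycling, 5 and 57. Monocytes (at least 10 Lyz2 UMIs, C1q below the macrophage gate) numbered 116 and 306, and T cells (at least 2 UMIs of Cd3d, Cd3e and Cd3g) 751 and 437.

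Marker lists that include the gate genes were high where their labels say. The gates themselves help to fix this, so the sums give no independent support for the class names. The 11 macrophage markers summed to 19598 counts per 1000000 class UMIs (CPM) in Nrp1L/L and 21209 CPM in control non-cycling macrophages, and the monocyte markers to 49674 and 35971 CPM in monocytes. The cDC gate was less alike between libraries. The 14 cDC markers summed to 3402 CPM in Nrp1L/L cDC and 3972 CPM in control cDC, against 377 and 277 CPM in non-cycling macrophages. The monocyte marker Lyz2, in contrast, stood at 17696 CPM in Nrp1L/L cDC and 1829 CPM in control cDC, and 19 of 41 against 17 of 106 of these cells held 10 or more Lyz2 UMIs. Markers of natural killer (NK) cells summed to 527 and 79.7 CPM there. Nrp1L/L cDC are therefore described as cells of the gate, and the part that these differences play in the results was not tested.

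**Figure D1:**
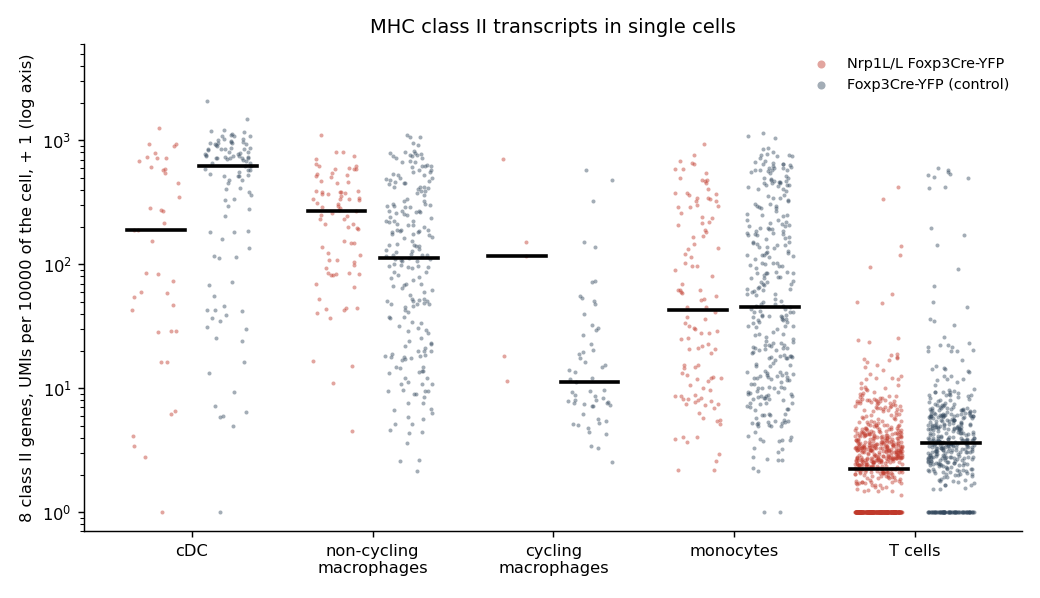
Summed UMIs of the 8 class II genes per 10000 UMIs of the cell, plus 1, on a log axis, for every cell of 5 classes, with Nrp1L/L cells left of control cells in each class. Points are cells and black bars are medians: the medians were 187.5 and 622 in cDC, 269 and 112 in non-cycling macrophages, and 42.1 and 44.3 in monocytes.

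Class II transcripts spread over more than 100-fold among single cDC, non-cycling macrophages and monocytes, and the genotypes differed in opposite directions in cells of the cDC gate and in non-cycling macrophages. Nrp1L/L cDC had a median of 187.5 class II UMIs per 10000 UMIs of the cell, with 5.15 at the 10th and 788 at the 90th percentile. Control cDC had a median of 622, with 26.8 and 1023 at those percentiles. Most control cDC thus lay near the top of the range, and Nrp1L/L cDC were spread along all of it.

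Non-cycling Nrp1L/L macrophages had a median of 269, a 10th percentile of 43.7 and a 90th percentile of 595. Non-cycling control macrophages had a median of 112, a 10th percentile of 8.55 and a 90th percentile of 619. The upper ends were alike and the lower ends were not: 74.1% of Nrp1L/L and 53.1% of control cells reached 100 class II UMIs per 10000. With every cell thinned to 2500 UMIs, so that depth was equal, the 10th percentiles were 10 and 2 UMIs, the medians 67 and 28, and the 90th percentiles 157 and 159.4. Cells with little class II were thus more frequent in the control library.

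Monocytes of both genotypes covered the same range. Their median was 42.1 in the Nrp1L/L and 44.3 in the control library, the 10th percentiles were 5.04 and 4.48, and 37.1% and 37.6% of cells reached 100 class II UMIs per 10000. In the plot of cumulative distributions the monocyte curves cross and recross.

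**Figure D2:**
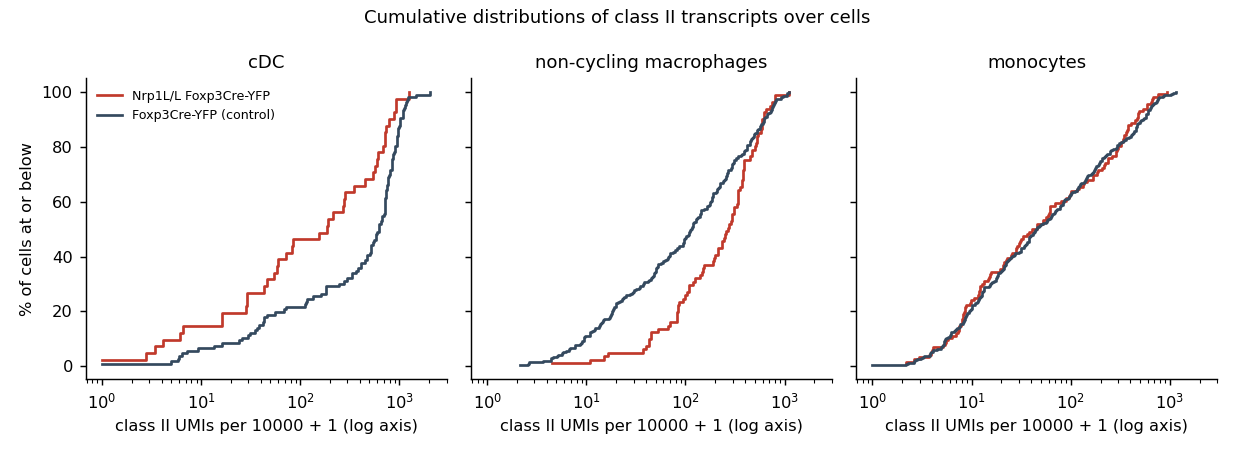
Cumulative share of cells (percent, vertical axis) at or below a class II level (UMIs of the 8 genes per 10000 UMIs of the cell, plus 1, log axis) in cDC, non-cycling macrophages and monocytes, for the Nrp1L/L (red) and control (dark) library. Nrp1L/L lies above control in cDC, below it in non-cycling macrophages up to about the 90th percentile (595 and 619), and close to it in monocytes.

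Class II UMIs of T cells and NK gate cells were taken as the level that free RNA and joined cells can give. T cells summed to 449 CPM in the Nrp1L/L and 1871 CPM in the control library, and NK gate cells to 401 and 531 CPM. Few T cells carried most of this: 8 of 751 Nrp1L/L T cells, each above 30 class II UMIs per 10000, held 60.2% of it, and 19 of 437 control T cells held 81.8%. Of those cells, 3 and 13 also passed the cDC gate. Without those 8 and 19 cells the sums were 181 and 359.6 CPM. All 7 members with 20 UMIs or more were at least 1.5-fold lower in Nrp1L/L T cells, where 12.6% of all genes were lower and 27.1% past 1.5-fold in either direction. Without those few cells 5 of 6 members with 20 UMIs or more were lower. H2-DMa was the exception, with 53.9 and 47.5 CPM, a log2 ratio of 0.18 (-0.08 to 0.45), against -0.84 with all T cells. Cd74 in the same remaining T cells stood at 51.9 and 142 CPM. In Nrp1L/L non-cycling macrophages H2-DMa and Cd74 stood at 1062 and 11814 CPM. The H2-DMa UMIs of Nrp1L/L T cells were thus not in the proportion seen in macrophages, and their source was not tested.

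The T cell level also decides how many cells stand above it. The 99th percentile of thinned T cells was 9 class II UMIs in the Nrp1L/L library and 122.28 in the control library, and non-cycling macrophages above it made 90.1% (81.5 to 95.6) and 15.8% (11.1 to 21.5). At the 95th percentile, which lies below most of those few T cells, the limits were 2 and 6 UMIs and the shares 97.5% and 74.2%. Against NK gate cells at their 99th percentile the limits were 4 and 11.78 UMIs, with shares of 96.3% and 65.6%. The Nrp1L/L share of macrophages was higher under each of these limits, but the limits differ between the libraries, so the shares give no order of level. Monocytes, whose levels were alike, had 51.7% and 10.8% above the 99th percentile of T cells. For cDC those shares were 73.2% and 59.4%, and at the 95th percentile they were 82.9% and 88.7%.

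The class II chains were the first group of members. Values are CPM of a class's summed UMIs, and ratios are log2 of Nrp1L/L over control. H2-Ab1, the A beta chain, stood at 6741 CPM in Nrp1L/L and 12657 CPM in control cDC, at 6728 and 4672 CPM in non-cycling macrophages, and at 2993 and 3351 CPM in monocytes. It was lower in Nrp1L/L cDC by a log2 ratio of -0.91 (-0.97 to -0.85), higher in non-cycling macrophages by 0.53 (0.48 to 0.58), and at -0.16 (-0.23 to -0.10) in monocytes. H2-Aa, the A alpha chain that pairs with it, stood at 6659 and 11919.6 CPM in cDC and 5553 and 4202 CPM in non-cycling macrophages. Its log2 ratios were -0.84 (-0.90 to -0.78) and 0.40 (0.35 to 0.46). H2-Eb1, the E beta chain, had the largest cDC difference of the 3 chains, with 4378 and 8680.2 CPM and a log2 ratio of -0.99 (-1.06 to -0.91), against 0.45 (0.39 to 0.51) in non-cycling macrophages. The 3 chains kept the same order of classes in the control library: cDC first, then non-cycling macrophages, monocytes, cycling macrophages and T cells.

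Cd74, whose product also acts as a receptor, differed in the same directions as the chains. It stood at 13726 and 21354 CPM in cDC, at 11814 and 8564 CPM in non-cycling macrophages and at 6551 and 6924 CPM in monocytes. Its log2 ratios were -0.64 (-0.68 to -0.59), 0.46 (0.43 to 0.50) and -0.08 (-0.12 to -0.04). The cDC ratio was close to 1.5-fold and came within it, at -0.55 to -0.38, under 6 of the other ways of choosing cells, among them leaving out cDC with 10 or more Lyz2 UMIs (-0.52).

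The peptide exchange genes did not follow one pattern. H2-DMa, the only H2-DM alpha chain, stood at 1189.8 CPM in Nrp1L/L and 1535 CPM in control cDC, within 1.5-fold, and at 1062 and 658 CPM in non-cycling macrophages. Its log2 ratio there, 0.69 (0.56 to 0.82), was the highest of the members. H2-DMb1, a beta chain, stood at 1057 and 1073 CPM in cDC, a log2 ratio of -0.02 (-0.19 to 0.14). The class II chains in the same cells differed by close to 2-fold. The H2-DMb1 value pools unlike parts of the gate, named by the gate gene with most UMIs. Its ratio was -0.29 (-0.49 to -0.09) in Cd209a-led and 2.77 (2.16 to 3.40) in Ccr7-led cells. Of 62 Nrp1L/L UMIs in Ccr7-led cells that also held Fscn1, 1 cell held 98.4%. H2-DMb2, the other beta chain, stood at 212 and 510.3 CPM in cDC with a log2 ratio of -1.27 (-1.62 to -0.93), the lowest of the members. In Cd209a-led cells with Lyz2 under 10 UMIs (5 and 38 cells) H2-DMb2 stood at 851 and 843 CPM, 0.01 (-0.50 to 0.49). With 10 or more Lyz2 UMIs (18 and 12 cells) it stood at 101 and 361 CPM, -1.83 (-2.73 to -0.99). In Ccr7-led cells its ratio was -0.90 (-1.68 to -0.19). In non-cycling macrophages H2-DMb2 was rare, with 32.3 and 31.2 CPM, and 1 of the 81 Nrp1L/L cells held 62.5% of its UMIs there. Without the cell with most class II UMIs of each library the log2 ratio was -1.34, against 0.05 with all cells.

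Ciita was near the limit of detection. It had 13 UMIs in Nrp1L/L and 37 in control cDC, or 34.4 CPM (18.3 to 58.9) and 33.9 CPM (23.9 to 46.7), and the log2 ratio was 0.02 (-1.01 to 0.97). In non-cycling macrophages it stood at 8.08 and 8.71 CPM and in monocytes at 7.67 and 7.91 CPM. The cDC level was above the macrophage level by a log2 ratio of 2.09 (0.60 to 3.77) in the Nrp1L/L and 1.96 (1.12 to 2.84) in the control library. No genotype difference was detectable at this depth, and the intervals would admit one of 1.5-fold in either direction in all 3 classes.

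**Figure D3:**
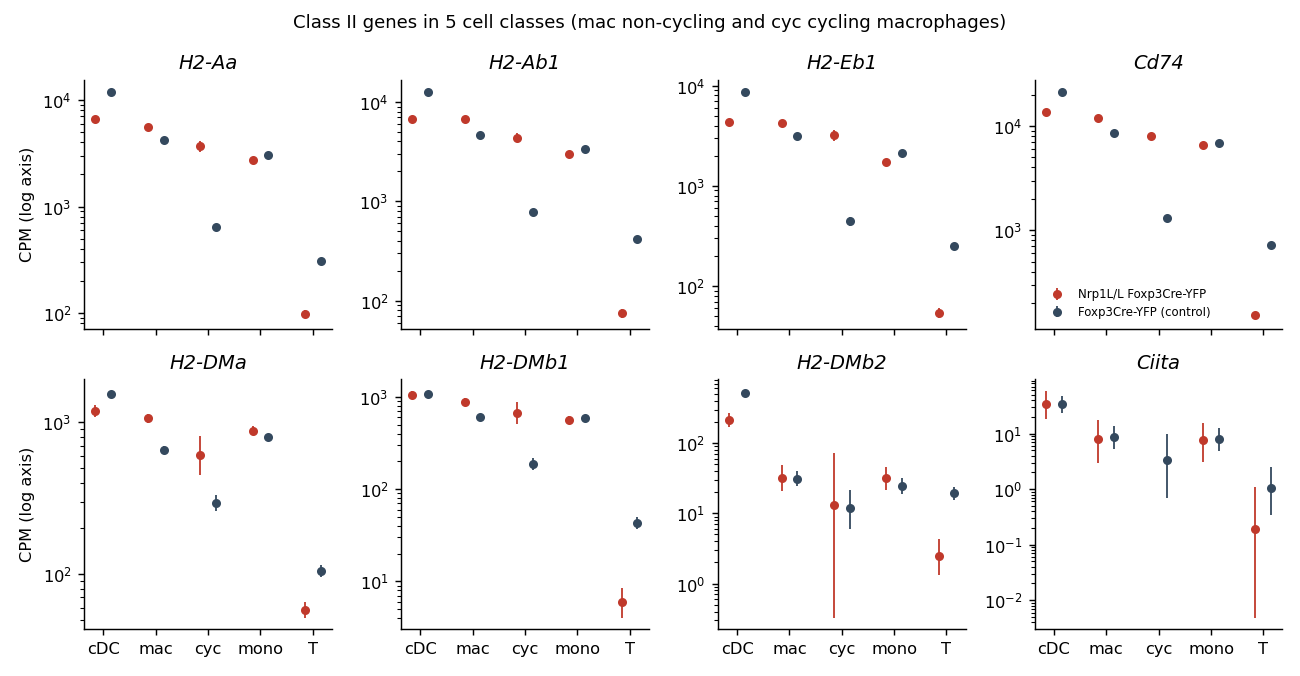
CPM of the 8 genes on log axes in cDC, non-cycling macrophages (mac), cycling macrophages (cyc), monocytes (mono) and T cells, with the Nrp1L/L library left of the control library in each class. Points are 1 library each, bars are exact Poisson intervals, and the 0 UMIs of Ciita in 5 cycling Nrp1L/L macrophages are not drawn. In both libraries all 8 genes were highest in cDC, with H2-Ab1 in Nrp1L/L cDC and non-cycling macrophages at 6741 and 6728 CPM.

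Counted together, 5 of 8 members were at least 1.5-fold lower and 0 higher in Nrp1L/L cDC, where 19.6% of all 5688 measured genes were lower and 22.9% higher (42.5% in all). The members' median log2 ratio was -0.74, against 0.05 over all genes measured. In non-cycling macrophages 1 of 8 members, H2-DMa, was at least 1.5-fold higher and 0 lower, where 15.9% of 6958 genes were higher and 20.1% lower (36.0% in all), with medians of 0.46 for the members and -0.03 for all genes. All macrophages together, cycling cells included, had 6 of 8 members higher and 0 lower, where 14.5% of 7822 genes were higher and 24.3% lower (38.8% in all), and a log2 ratio of the summed members of 0.83 (0.81 to 0.86). Cycling cells made 5.81% of Nrp1L/L and 21.4% of control macrophages, and with the control share set to the Nrp1L/L share that ratio was 0.54. In monocytes 0 of 8 members were past 1.5-fold in either direction, where 34.9% of genes were.

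**Figure D4:**
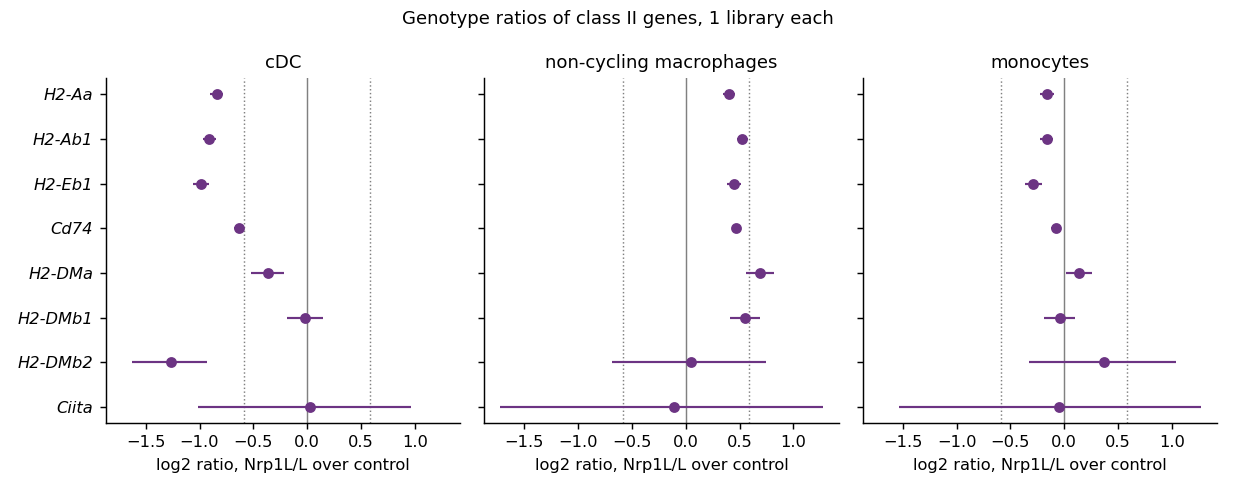
Log2 ratio of CPM, Nrp1L/L over control, for the 8 genes in cDC, non-cycling macrophages and monocytes. Points are ratios of 1 library each, bars are exact intervals for counting error, the solid line marks no difference and dotted lines mark 1.5-fold. The chains and Cd74 lie from -0.99 to -0.64 in cDC, from 0.40 to 0.53 in non-cycling macrophages and from -0.29 to -0.08 in monocytes.

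The macrophage and cDC differences depended on which cells were counted. Gates applied to thinned cells gave a log2 ratio of summed members of 0.80 in non-cycling macrophages, against 0.47 (0.45 to 0.50) with gates on raw UMIs, and moved the count of higher members to 6. In cDC, leaving out every cell with a single Cd3 UMI gave -0.48, against -0.76 (-0.79 to -0.74), and 3 members lower instead of 5. With cDC of 10 or more Lyz2 UMIs left out 4 members were lower.

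The distance between cDC and non-cycling macrophages was not alike in the 2 libraries. In the Nrp1L/L library cDC and non-cycling macrophages had summed class II of 33998 and 30347 CPM, a log2 ratio of 0.16 (0.13 to 0.20). This turned to -0.63 when each gate was applied as written, so that a cell could stand in several classes. In the control library they had 57763 and 21865 CPM, a log2 ratio of 1.40 (1.38 to 1.42). Over 26 ways of processing the counts this control ratio ranged from 0.63 to 1.78. For H2-Ab1 the Nrp1L/L value was 0.00 (-0.07 to 0.07), and for H2-DMb2 it was 2.71 (2.04 to 3.44), against 1.44 and 4.03 in the control library. H2-DMb2 thus set cDC apart from macrophages by more than any other member in both libraries.

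Cycling macrophages had little class II in the control library. Their sum was 3667 CPM, against 21865 CPM in non-cycling control macrophages, a log2 ratio of -2.58 (-2.63 to -2.53). Over 26 ways of processing the counts this ratio ranged from -2.87 to -1.09. The single-cell median of cycling control macrophages was 10.2 per 10000, and 8.77% of 57 cells reached 100. This was so although the median depth of cycling cells was 15194 UMIs, above the 9452 of the others. The chains and Cd74 were lower by log2 ratios of -2.81 to -2.58, H2-DMb1 by -1.70 (-1.94 to -1.47) and H2-DMa by -1.17 (-1.36 to -0.98), so H2-DMa made up more of what was left. H2-DMa reached 37.7 UMIs per 100 H2-Ab1 UMIs in cycling and 14.1 in non-cycling control macrophages. The 5 cycling Nrp1L/L macrophages had 20554 CPM, of which 1 cell held 78.6%, and without it the log2 ratio to non-cycling cells was -2.32, against -0.56 with it.

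Non-cycling macrophages exceeded monocytes in summed class II by a log2 ratio of 0.97 (0.94 to 1.00) in the Nrp1L/L library and 0.37 (0.35 to 0.39) in the control library. Over 26 ways of processing the counts these ratios ranged from 0.76 to 1.14 and from 0.02 to 0.46, so the control excess nearly vanished under some. H2-DMa went the other way in the control library, with 658 CPM in macrophages and 800.2 CPM in monocytes, and the Nrp1L/L values were 1062 and 879.7 CPM.

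Monocytes were split by the monocyte genes Chil3 and Hp. The 32 Nrp1L/L and 106 control monocytes with under 2 UMIs of both summed to 29241 and 29237 CPM of class II, and the 84 and 200 with 2 or more to 10875 and 10889.8 CPM. Cells without these genes thus had 2.69-fold and 2.68-fold more class II than cells with them. The genotype log2 ratio was 0.00 (-0.04 to 0.04) within each part, while it was -0.12 (-0.15 to -0.09) with both parts pooled. Single members did differ within the parts. In monocytes without Chil3 and Hp, H2-DMa stood at 1331 and 884 CPM, a log2 ratio of 0.59 (0.39 to 0.79), and in those with them at 727 and 759 CPM. H2-DMb2 differed the other way about, with 51.8 and 53.4 CPM in monocytes without these genes and a log2 ratio of 1.25 (0.19 to 2.31), from 17 UMIs in each library, in those with them.

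The cDC gate held cells with different leading genes, and the libraries held them in different numbers. The leading gate gene was Cd209a in 23 Nrp1L/L and 50 control cells, Ccr7 in 13 and 38, Xcr1 in 1 and 12, and Flt3 in 3 and 5, with 1 tie in each. Cd209a-led cells summed to 33488 and 69399 CPM of class II, and Lyz2 in them stood at 29509 and 2568 CPM. With Lyz2 under 10 UMIs, the 5 Nrp1L/L and 38 control cells left had 42088 and 74037 CPM, a log2 ratio of -0.81 (-0.88 to -0.75). Xcr1-led control cells had 78418 CPM, and the single Nrp1L/L cell of that kind 54431 CPM. Ccr7-led cells that also held Fscn1, a gene of mature migrating dendritic cells, had 38934 CPM in 7 Nrp1L/L and 36872 CPM in 25 control cells, a log2 ratio of 0.08 (0.01 to 0.14). The summed class II was thus lower in the Nrp1L/L library in Cd209a-led cells, with few or many Lyz2 UMIs. In Ccr7-led cells only the pooled sums were near equal. Of the 7 Nrp1L/L cells with Fscn1, 1 held 64.8% of their H2-Ab1 UMIs, and no sum without that cell is given. On the single-cell scale used for the medians above, the Nrp1L/L medians of Ccr7-led cells were lower. They were 189.8 against 230.1 in all, 214.6 against 277.5 with Fscn1, and 5.36 against 22.9 without Fscn1.

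Mature Ccr7-led control cells had an unusual mix of class II transcripts. Their H2-DMb1 stood at 70.4 CPM, against 1628 CPM in Cd209a-led control cells with Lyz2 under 10, a log2 ratio of -4.53 (-5.41 to -3.77). H2-DMa stood at 463 and 2319.8 CPM in the same cells, -2.33 (-2.65 to -2.02), H2-Ab1 at 4389.6 and 16938 CPM, -1.95 (-2.05 to -1.85), and H2-DMb2 at 362 and 843 CPM, -1.22 (-1.61 to -0.85). H2-Aa, at 10444 and 14280.3 CPM, was the least different, -0.45 (-0.52 to -0.38). In the 7 Nrp1L/L cells against 5 Cd209a-led ones the same ratios were -0.41 (-0.94 to 0.12) for H2-DMb1 and -0.39 (-0.59 to -0.19) for H2-Ab1. A single cell held 98.4% of these H2-DMb1 UMIs and 64.8% of the H2-Ab1 UMIs. Without it the H2-Ab1 ratio was -1.47 (-1.75 to -1.19), and 1 H2-DMb1 UMI was left, a ratio of -5.94 (-11.26 to -3.40).

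Ratios of UMIs between genes are used here only to compare cell groups. H2-DMb2 made 25.8 UMIs per 100 H2-DMb1 UMIs in the mature Ccr7-led Nrp1L/L cells and 514 (288 to 987) in the control cells. The Nrp1L/L value rests on 1 of 7 cells, which held 98.4% of the H2-DMb1 UMIs. Its 6 companions held 1 H2-DMb1 UMI together, which gives no usable ratio. Over the whole gate the ratio was 20.1 (15.6 to 25.5) and 47.6 (42.9 to 52.7), in non-cycling macrophages 3.63 and 5.12, and in monocytes 5.60 and 4.20. H2-Aa per 100 H2-Ab1 was 145 (127 to 164) and 238 (219.7 to 258) in mature Ccr7-led cells, and 82.5 and 89.9 in non-cycling macrophages. Without the cell richest in H2-Aa the mature-cell ratios were 224 and 259.

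**Figure D5:**
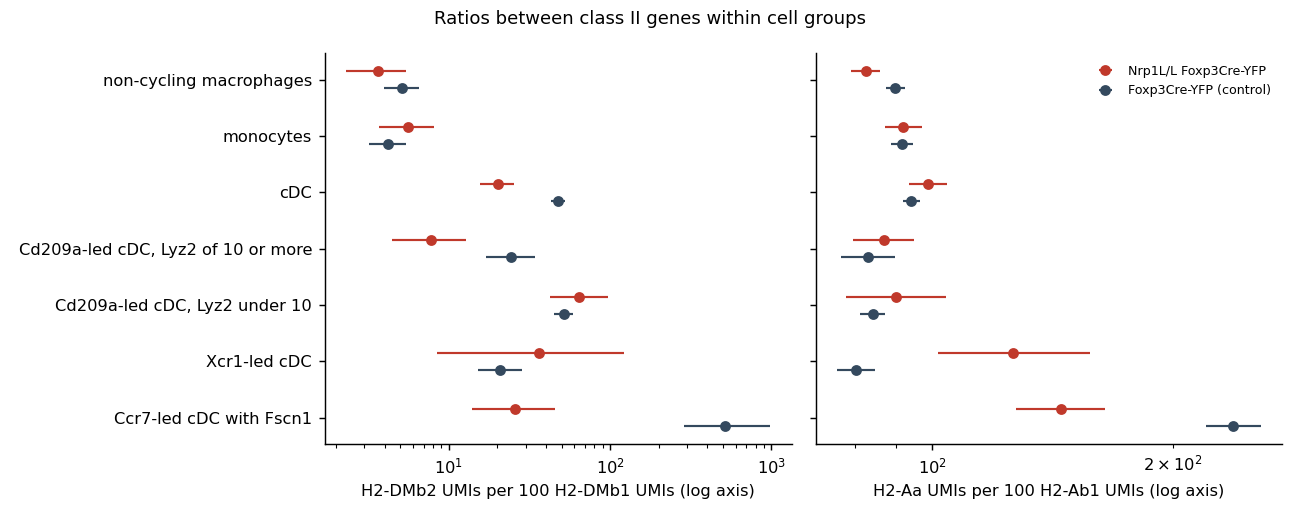
H2-DMb2 UMIs per 100 H2-DMb1 UMIs (left, log axis) and H2-Aa UMIs per 100 H2-Ab1 UMIs (right, log axis) in 7 cell groups, with Nrp1L/L above control. Bars are exact intervals for counting error, and Xcr1-led Nrp1L/L is 1 cell. Control Ccr7-led cells with Fscn1 stand apart at 514 and 238.

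Over single cells the chains and Cd74 moved together. The correlation of each with the sum of the other members, on a log scale, was 0.78 to 0.95 in cDC, non-cycling macrophages and monocytes of both libraries. It was 0.58 to 0.67 for H2-DMb1 and 0.38 to 0.58 for H2-DMa. It ran from 0.11 to 0.60 for H2-DMb2 and from -0.10 to 0.28 for Ciita, both from sparse counts. These are descriptions, since cells of a library share its depth and free RNA.

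Over 10 class sums (5 classes in 2 libraries), the genes most like the summed members on a log scale were Plbd1 (Pearson r of 0.97 over 6490 genes compared), Fgd2, Gsn, Nuak2, Cd40, Ifi30, Irf5 and Naaa. Ifi30 encodes the lysosomal thiol reductase of antigen processing and Cd40 a costimulatory receptor. Within non-cycling macrophages the most similar of 2574 genes were Cd52 (mean r of 0.44), Ass1, Ifi30, the lysosomal protease gene Ctss, Ncf4, Ly6c2, Il1b and Ms4a4c. The lowest were the chemokine gene Pf4 (-0.38), Dab2, Ctsd and Folr2. Ly6c2, a monocyte gene, stood at 2419 CPM in Nrp1L/L and 1142 CPM in control non-cycling macrophages, and Pf4 at 321 and 2406 CPM. These had the largest genotype ratios of the 2 groups, chosen after their values were seen. Of the 8 most similar genes 6 were higher and 2 lower in Nrp1L/L cells, with Il1b at 865 and 1168 CPM and Ncf4 at 255 and 299 CPM. Of the 8 lowest 4 were lower, while Folr2 stood at 143 and 120.1 CPM. These counts go by the sign of the ratio alone. Past 1.5-fold were Ass1, Ly6c2 and Ms4a4c of the most similar genes, all higher, and Pf4, Dab2 and Ctsd of the lowest, all lower. Over all genes measured in these cells 15.9% were higher and 20.1% lower at 1.5-fold. These correlations are weak and come from sparse counts.

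Genes that act around class II were taken from lists chosen with earlier results known. The list of transcription regulators had 5 of 11 measured genes at least 1.5-fold higher and 0 lower in non-cycling Nrp1L/L macrophages, where 15.9% and 20.1% of all genes were. Irf2, an interferon regulatory factor gene, stood at 139 and 49.5 CPM, a log2 ratio of 1.49 (1.08 to 1.89). In monocytes 5 of 12 were higher and 0 lower, where 16.2% and 18.7% of genes were, and no member was past 1.5-fold. The list medians were 0.48 and 0.28, against medians of -0.03 and -0.01 over all genes.

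Socs1, a gene that interferon-gamma induces and that damps its signal, stood at 159 and 35.8 CPM in non-cycling macrophages and 169.8 and 41.6 CPM in monocytes, with log2 ratios of 2.15 (1.73 to 2.58) and 2.03 (1.66 to 2.41). Pdcd1lg2, which encodes the inhibitory ligand PD-L2, stood at 40.4 and 7.80 CPM and at 36.2 and 7.08 CPM. Cd40 stood at 147 and 64.7 CPM in non-cycling macrophages, a log2 ratio of 1.18 (0.81 to 1.55), and at 215 and 47.0 CPM in monocytes, 2.19 (1.85 to 2.54). Jak2 had log2 ratios of 1.29 (0.20 to 2.36) and 1.56 (0.93 to 2.19). The ratios of Socs1, Pdcd1lg2 and Jak2 were thus of similar size in both classes, and that of Cd40 was larger in monocytes, where the summed class II was alike between libraries. Cd80 in monocytes was lower, with 5.48 and 17.5 CPM. Of 5 interferon-gamma signal genes, 2 (Socs1 and Jak2) were higher and 0 lower in each class, with Ifngr1, Ifngr2 and Jak1 within 1.5-fold. Of the costimulation genes measured, 2 of 5 were higher and 0 lower in non-cycling macrophages. In monocytes 3 of 6 were higher and 2 lower. Over all genes 15.9% were higher and 20.1% lower in non-cycling macrophages, and 16.2% and 18.7% in monocytes.

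Of 12 antigen processing genes, 0 were higher and 2 lower in non-cycling macrophages, and the same counts held in monocytes. This is near the share of all genes that were lower, 20.1% and 18.7%. Ctsl, a lysosomal protease, stood at 505 and 1344 CPM in non-cycling macrophages and 203 and 748 CPM in monocytes, log2 ratios of -1.41 (-1.57 to -1.26) and -1.88 (-2.11 to -1.66). Ctss, the protease that makes the last cuts of the invariant chain, stood at 5810.1 and 3882 CPM in macrophages, just within 1.5-fold.

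In cells of the cDC gate the transcripts of the inhibitor of H2-DM were low in the Nrp1L/L library. The make-up of the gate differed between the libraries, and the part it plays in these values was not tested. H2-Oa stood at 55.6 and 172 CPM, -1.63 (-2.36 to -0.98), from 21 and 188 UMIs. H2-Ob stood at 10.6 and 71.5 CPM, -2.75 (-4.66 to -1.34), from 4 and 78 UMIs. March1, whose product marks class II for degradation, stood at 55.6 and 14.7 CPM, 1.92 (0.92 to 2.96). Irf1 stood at 339 and 117 CPM, Irf4 at 5.30 and 18.3 CPM on 22 UMIs in all, and Rfxap at 10.6 and 32.1 CPM on 4 and 35 UMIs. Of the 12 processing genes 5 were higher in cDC and 0 lower, where 22.9% of all genes were higher.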

How the data were processed

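The authors deposited raw UMI counts per gene and barcode for 2 libraries. Per the submitters' processing notes, Cell Ranger 1.3 and mm10 were used, and the labels give 2600 cells as the input of either library. The labels do not say how many mice each library holds. From the counts, doublets scored by Scrublet (scanpy 1.11.5) were left out, 26 Nrp1L/L and 8 control barcodes: the tool's threshold was kept if it called 0.5% to 10% of barcodes, and if not, the top 2% by score were taken. Gates were applied in the order T cells, cDC, macrophages, monocytes, so that each cell has 1 class. UMIs were summed per class and scaled to CPM. Intervals are exact Poisson (CPM), conditional binomial (ratios) and Clopper-Pearson (shares), at 95%. Genes were counted as different at 1.5-fold with 20 UMIs or more over both libraries. The script was tested on simulated counts. Members, lists and gates were chosen with earlier results of these data known. Named pathway genes are up to 6 per comparison with the largest ratio past 1.5-fold; the other pathway genes named were chosen after their values were seen. One pathway result is not reported here.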

Additional observations from a re-analysis of the deposited data

Results flagged for a closer look

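Class II differed between genotypes in opposite directions in 2 cell classes, which drew attention because the sign changed between them. This difference was not tested, with 1 library per genotype. Nrp1L/L over control, the log2 ratio in cDC and in non-cycling macrophages was -0.84 and 0.40 for H2-Aa, -0.91 and 0.53 for H2-Ab1, -0.99 and 0.45 for H2-Eb1, -0.64 and 0.46 for Cd74, -0.37 and 0.69 for H2-DMa, and -0.76 and 0.47 for the summed members. Values that move with it are Lyz2 in cDC, at 17696 CPM in the Nrp1L/L and 1829 CPM in the control library, and Ly6c2 in non-cycling macrophages, at 2419 and 1142 CPM, and their part in the result was not tested. Ly6c2 is 1 of the 8 genes most similar to class II there. Il1b of the same 8 went the other way, at 865 and 1168 CPM.

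Cells that passed no gate also carried class II, as pooled sums well above T cells of the same library. They summed to 11942 CPM in 66 Nrp1L/L cells, against 449 CPM in T cells, and to 23936 CPM in 83 control cells, against 1871 CPM in T cells.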

How the results depend on the processing

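No paired analysis was possible because each genotype has 1 library. Of the results that summarise a comparison, 471 recomputed values kept their direction and side of 1.5-fold, their count (within 1.5 times) or their share (within its interval), 36 counts or shares moved, 10 values passed 1.5-fold, 2 no longer did and 1 reversed. Leaving out the richest cell, T cells rich in class II, or cDC with Lyz2 or NK genes, was chosen after seeing the data. The summed members in non-cycling macrophages ranged from 0.39 to 0.80, passing 1.5-fold with gates on thinned counts (0.80) and on counts scaled to 5000 (0.60), in cDC from -0.88 to -0.48 (CD3 minimum of 1), in monocytes from -0.32 to -0.01, and in all macrophages from 0.54 (cycling share of the control set to that of Nrp1L/L) to 0.94. TMM and median-of-ratios scaling each moved the median of all genes by 0.12 in cDC. Members higher in non-cycling macrophages, 1 in the report, numbered 6 with gates on thinned counts, 4 on scaled counts, 3 with a cycling minimum of 1 or with means over cells, and 2 with gates as written, with C1q minimums of 5 or 20, or with thinned sums. Members lower in cDC, 5 in the report, numbered from 3 (CD3 minimum of 1) to 6 (gates as written). H2-DMb2 became the 1 member lower in non-cycling and in all macrophages with gates on thinned (-0.86 and -0.73) or scaled counts (-0.71 and -0.61), a C1q minimum of 20 (-1.15 and -0.86), a CD3 minimum of 1 (-1.44 and -1.19), or without the cell with most member UMIs (-1.34 and -1.04). It was the 1 member higher in monocytes with a C1q minimum of 20 or thinned sums. Ciita in non-cycling macrophages reversed to 1.33 as a mean over cells. The ratio of cDC to non-cycling macrophages in the Nrp1L/L library reversed to -0.63 with gates as written. Cycling over non-cycling Nrp1L/L macrophages, 5 cells, was -0.96 with gates as written, -1.39 on thinned or scaled counts, -1.87 and -0.73 with CD3 minimums of 1 and 3, -1.02 with TMM or median-of-ratios scaling and -2.32 without its richest cell, with a highest value of 0.15. Shares above T cell background, given for Nrp1L/L and control cells, also moved. With the 95th percentile they were 97.5% and 74.2% (non-cycling macrophages), 73.3% and 59.2% (monocytes) and 88.7% (control cDC). Above the highest T cell they were 28.4% and 11.0%, 11.2% (Nrp1L/L monocytes), and 34.1% and 49.1% (cDC). Against NK gate cells they were 96.3% and 65.6%, 66.4% and 49.0%, and 82.1% (control cDC). The causes were not tested. Depth limits Ciita and H2-DMb2 most, with 27 and 190 UMIs in the Nrp1L/L library.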

Other observations

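Among cells of no gate, those with markers of plasmacytoid dendritic cells (Siglech and Ccr9) summed to 13065 CPM of class II in 10 Nrp1L/L cells and 20366 CPM in 16 control cells. Cells with B cell markers had 26451 CPM in 3 Nrp1L/L and 10912 CPM in 2 control cells. Nrp1L/L cells with basophil markers had 160.1 CPM in 20 cells, below the 449 CPM of T cells of that library. The control library held 2 such cells.

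The 7 Nrp1L/L and 4 control cDC gate cells with a UMI of Ncr1 or Klrb1c had 28175 and 642 CPM of class II. These sums do not describe the typical cell. On the single-cell scale used for the medians above, the medians of these cells were alike, at 5.56 and 5.53. The highest cells stood at 1265 and 8.33 on that scale. Only 3 of the 7 Nrp1L/L cells and 0 of the 4 control cells lay clearly above the medians.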
